A study of Mus musculus with 12 samples.

Results

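Basal cells of the interfollicular epidermis, the skin between hair follicles, were compared between wild-type mice and mice whose genotype is given as a knockout of the circadian clock gene Bmal1, listed on the array as Arntl. The comparison rested on 6 arrays, all those of the series that carry basal interfollicular cells, out of 12 in all, with 3 arrays from wild-type mice and 3 from mice labelled Bmal1 KO. The other 6 arrays held bulge cells, sorted by a clock reporter as Venus bright or dim from mice at postnatal day 18 to 19. They enter only 1 test below, the choice of probe sets and an alternative fit of all 12 arrays. Each epidermal sample was sorted from the dorsal skin of 5 mice aged 1 year that had received no treatment, and total RNA was amplified across the whole transcriptome before labelling. The series calls the mutation an epidermal knockout, and its labels describe the wild-type cells as clock positive and the KO cells as clock negative. The Cre line, its promoter, the strain and the hour of collection are not given in the sources used here. Since animals were pooled and the labels do not say how the pools were made, p-values measure the spread between these 6 pools only.

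Bmal1 and its partner Clock form the transcription factor that binds E-box sequences and drives the Period and Cryptochrome genes, whose proteins repress it in turn. The same factor drives the REV-ERB receptors Nr1d1 and Nr1d2, which compete with ROR receptors at RORE sequences and thereby repress Bmal1, Cry1 and Nfil3, and it drives Dbp, Tef and Hlf, which activate genes through D-box sequences that Nfil3 represses. In skin, keratinocytes of the basal layer carry this clock, divide, and leave for the spinous and granular layers, where they build the cornified barrier.

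Values were measured for 28853 probe sets on the 6 arrays, and 21789 of these carry exactly 1 gene symbol, which gave 19938 genes. After the 30% dimmest genes were left out, 13956 genes were tested. A gene is said to have risen or fallen where its adjusted p (limma, Benjamini-Hochberg over the 13956 genes) was under 0.05, and changes are given as Bmal1 KO minus wild type on the log2 scale. Array medians lay between 7.75 and 7.80. The largest source of variance among the arrays, 48.1%, did not part the genotypes: wild-type array 1 and KO array 3 lay at one end and KO array 1 and wild-type array 3 at the other. The next, 30.9%, placed all wild-type arrays on one side and all KO arrays on the other. The labelled cell type was checked against its markers. All 12 markers of basal interfollicular keratinocytes were measured, none passed the test between genotypes, their median change was 0.01, and the keratins Krt5, Krt14 and Krt15 lay between 13.47 and 13.66 on every array. Xist lay between 11.97 and 12.77, and the Y-linked genes Eif2s3y, Kdm5d and Uty between 4.27 and 5.30.

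In all, 27 genes passed the test, which is 0.193% of those tested. Of these, 11 were higher in the KO (0.0788%) and 16 were lower (0.115%). All 27 had non-overlapping groups of arrays, a pattern found in 12.7% of all genes tested. Before adjustment, 7.97% of genes had a p under 0.05, 2.45% higher and 5.52% lower. The median change over all genes was -0.01, and 46.4% of changes were above 0. The genes that fell furthest were the clock genes Nr1d1, Per3, Nr1d2 and Ciart, and those that rose furthest were Serpina3b, Nfil3, Ttc9, Il18r1, Abhd12b and Cry1. With each array left out in turn, Nr1d1, Per3, Nr1d2, Cry1, Serpina3b and Il18r1 passed every time. Each of the other 21 missed the threshold at least once. Cdc25b, Fam171b, Gem, Homer2, Marcks, Rras2, Rsad1, Serpina4-ps1, Skint10 and Sytl2 passed in 1 of the 6 fits, that without wild-type array 1. The clock genes Nfil3 and Ciart passed in 2 of the 6. The number of calls in these fits ranged from 7, without KO array 2, to 103, without wild-type array 1. Marcks passed under none of the 3 other scalings of the arrays.

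**Figure D1:**
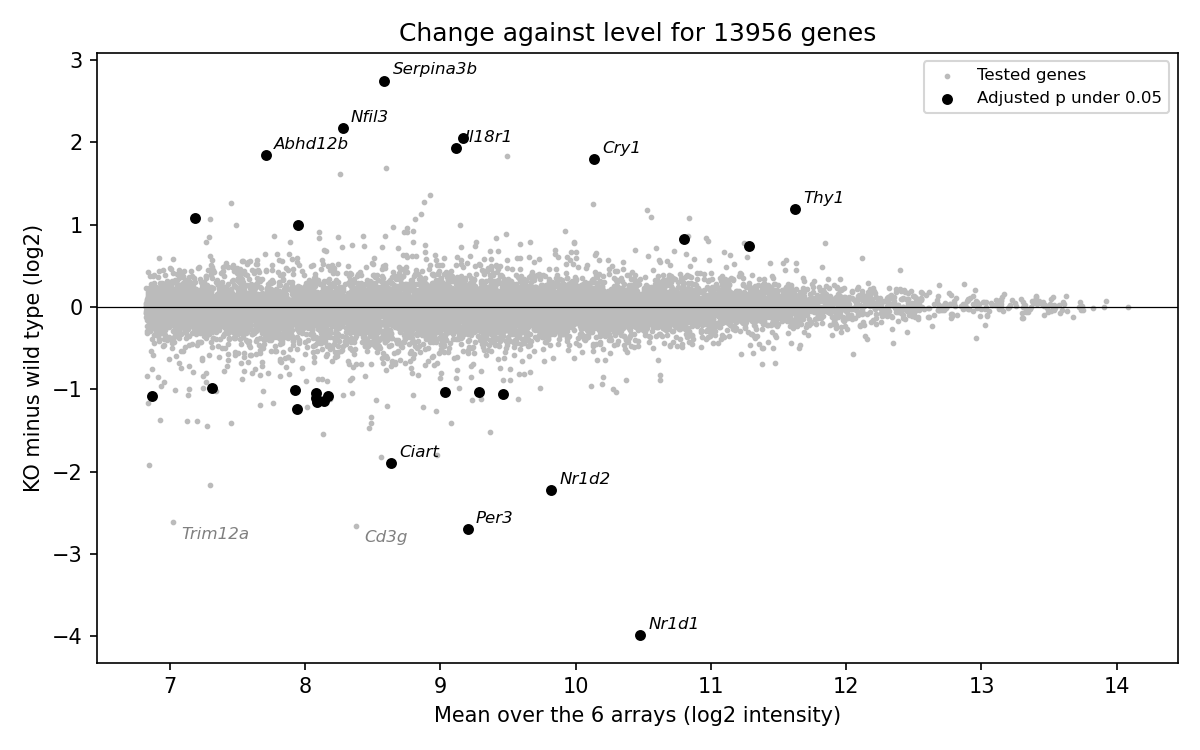
Change between Bmal1 KO and wild type (log2, vertical axis) against the mean of the 6 arrays (log2 intensity, horizontal axis) for the 13956 genes tested. Black points are the 27 genes with an adjusted p under 0.05. Nr1d1 lies lowest at -3.98 and Serpina3b highest at 2.75. The grey labelled genes Cd3g and Trim12a show large changes that did not pass the test.

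Of 21 core clock genes listed, 19 were measured by a probe set of their own and 17 were tested. Of these 17, 6 passed the test: Cry1 and Nfil3 rose, and Per3, Nr1d1, Nr1d2 and Ciart fell. Over all genes tested, 0.193% passed. The 6 clock genes are among the 27 called genes. The arrays of the genotypes did not overlap for 13 of the 17, with the KO higher for 3 and lower for 10, where 4.11% and 8.58% of all genes did so. Npas2 had no probe set of its own, and Rorb and Bhlhe41 fell below the limit on dim genes.

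Promoter windows are shown first for the 5 core clock genes that passed the test and held a motif through which clock factors are known to act, and for Bhlhe41, which was too dim to be tested. Nr1d2 also fell, and its window held none of the letters searched. Each run below is the 250 bases before the annotated start in RefSeq (build GRCm38.p6), written 5′ to 3′ along the gene's own strand, with every match to a searched motif in capitals. Both strands were searched for the E-box CACGTG, its variant CACGTT, the D-box forms TTATGTAA and TTACGTAA, and the RORE cores TAGGTCA and TGGGTCA. A match on the other strand appears as the reverse complement, so that AACGTG marks the E-box variant and TGACCTA a RORE core. No searched motif overlapped another in these windows. Of 32851 windows of the same length, 6.02% held CACGTG, 3.85% CACGTT, 0.819% TTATGTAA, 0.113% TTACGTAA, 2.23% TAGGTCA and 3.24% TGGGTCA.
The first window, of a gene that fell, is that of Ciart, a repressor of the Bmal1 and Clock factor (chr3:95882229-95882478, minus strand). It held 3 E-boxes, beginning 116, 58 and 44 bases before the start.
Ciart: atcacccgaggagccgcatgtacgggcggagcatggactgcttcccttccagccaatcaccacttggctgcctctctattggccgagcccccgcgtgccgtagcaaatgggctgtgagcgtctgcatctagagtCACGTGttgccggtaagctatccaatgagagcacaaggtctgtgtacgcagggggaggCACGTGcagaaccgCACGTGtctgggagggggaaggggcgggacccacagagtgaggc
The window of Bhlhe41, another E-box repressor, held 1 E-box beginning 153 bases before the start (chr6:145865421-145865670, minus strand).
Bhlhe41: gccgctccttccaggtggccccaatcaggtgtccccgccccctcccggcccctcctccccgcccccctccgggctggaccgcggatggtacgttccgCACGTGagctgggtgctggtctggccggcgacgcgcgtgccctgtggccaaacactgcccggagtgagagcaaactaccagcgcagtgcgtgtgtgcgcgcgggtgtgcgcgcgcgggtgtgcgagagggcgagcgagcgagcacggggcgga
That of Nr1d1 held 1 E-box variant, 28 bases before the start (chr11:98775378-98775627, minus strand).
Nr1d1: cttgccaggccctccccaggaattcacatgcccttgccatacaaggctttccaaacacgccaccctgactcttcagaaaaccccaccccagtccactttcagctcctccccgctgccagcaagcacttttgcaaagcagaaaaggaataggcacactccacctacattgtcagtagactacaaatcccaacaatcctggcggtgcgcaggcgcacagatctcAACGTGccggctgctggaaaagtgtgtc
The window of Per3 held the D-box form TTATGTAA at 2 places, 205 and 158 bases before the start (chr4:151044666-151044915, minus strand).
Per3: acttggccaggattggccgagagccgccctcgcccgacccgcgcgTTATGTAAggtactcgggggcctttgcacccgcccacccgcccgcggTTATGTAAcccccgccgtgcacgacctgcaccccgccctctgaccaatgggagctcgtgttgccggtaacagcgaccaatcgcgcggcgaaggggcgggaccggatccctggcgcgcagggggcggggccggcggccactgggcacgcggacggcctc
Of the genes that rose, Cry1 held an E-box variant and an E-box, 79 and 60 bases before the start (chr10:85185055-85185304, minus strand).
Cry1: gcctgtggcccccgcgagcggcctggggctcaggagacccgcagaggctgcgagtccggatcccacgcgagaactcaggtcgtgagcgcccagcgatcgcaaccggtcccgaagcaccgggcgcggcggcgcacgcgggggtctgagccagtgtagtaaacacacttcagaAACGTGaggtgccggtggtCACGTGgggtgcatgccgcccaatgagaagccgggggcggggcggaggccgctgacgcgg
Nfil3 held a RORE core 12 bases before the start (chr13:52981040-52981289, minus strand).
Nfil3: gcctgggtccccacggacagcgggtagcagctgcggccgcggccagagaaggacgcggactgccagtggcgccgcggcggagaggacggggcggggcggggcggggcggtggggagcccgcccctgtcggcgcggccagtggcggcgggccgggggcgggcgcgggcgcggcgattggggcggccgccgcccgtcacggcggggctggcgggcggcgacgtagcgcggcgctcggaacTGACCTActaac

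Matches were also counted over the rest. Of the 21 core clock genes, 18 have a window in the table and 10 of these held a match, among them Tef and Per1 with the E-box and Cry2 with its variant. Of the 21 called genes outside the core clock, 13 have a window and 2 held a match, the D-box form TTACGTAA in Homer2 and the E-box variant in Chn2, each at 1 of several annotated starts. These are matches of letters, not measured binding, and several genes have more than 1 annotated start. The counts take any searched motif at any start of a gene, while the shares above are for single motifs in single windows. The share of all genes with any match was not counted, so neither count can be called high or low.

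Among the activators, no gene passed the test. Arntl itself read 9.27, 9.47 and 9.34 on the wild-type arrays and 9.85, 9.60 and 9.55 on the KO arrays, a difference of 0.30 ± 0.12 (SE; adjusted p = 0.528, limma). Every KO array was thus above every wild-type array in the gene named in the genotype. Its level came from 1 probe set whose place relative to the deleted part is not known here, so the value checks no genotype label. Clock, the partner of Bmal1, differed by 0.15 ± 0.10 and its groups overlapped. Arntl2, a relative of Bmal1, differed by -0.28 ± 0.15 and overlapped as well.

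The Period and Cryptochrome genes, which encode the repressors of the loop, did not move together. Per3 read 10.61, 10.54 and 10.49 in wild type and 8.03, 7.75 and 7.79 in the KO. It fell by 2.69 ± 0.11 (adjusted p = 5.7e-05, limma), a 6.47-fold lower intensity, and the groups were far apart on every array. Cry1 went the other way, from 9.15, 9.28 and 9.29 in wild type to 11.13, 11.01 and 10.96 in the KO. It rose by 1.80 ± 0.10 (adjusted p = 0.00034, limma), a 3.47-fold higher intensity, and the arrays of each group lay close together. The remaining members did not pass the test.

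Per2 read 9.11, 9.55 and 9.64 in wild type and between 8.69 and 9.01 in the KO, a difference of -0.53 ± 0.16 (adjusted p = 0.37, limma). Its groups did not overlap, although wild-type array 1 lay just above the KO arrays. Per1 read 9.94, 9.69 and 10.42 in wild type and 10.30, 9.19 and 9.02 in the KO. KO array 1 alone stood within the wild-type range, and the difference of -0.51 ± 0.33 had an adjusted p of 0.844 (limma). Cry2 overlapped between groups and differed by -0.30 ± 0.18.

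Of the nuclear receptors that act at RORE sequences, both REV-ERB genes fell and the single tested ROR gene did not pass. Nr1d1, which encodes the heme-binding repressor REV-ERB alpha, read 12.29, 12.52 and 12.60 in wild type and 8.63, 8.39 and 8.44 in the KO. It fell by 3.98 ± 0.12 (adjusted p = 1.1e-05, limma), a 15.8-fold lower intensity and the largest change of any gene tested. Nr1d2, which encodes REV-ERB beta, read 11.04, 10.84 and 10.91 in wild type and 8.81, 8.75 and 8.57 in the KO. It fell by 2.22 ± 0.11 (adjusted p = 0.00017, limma), a 4.67-fold lower intensity. Rora, the ROR receptor that activates the same targets, read 11.95, 12.04 and 12.07 against 11.85, 11.87 and 11.74. Its groups did not overlap, but the difference of -0.20 ± 0.10 did not pass the test. Rorb was dim, near 6.3 in both genotypes.

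Of the 4 D-box factors, Nfil3 alone passed the test. Nfil3, the repressor at D-boxes, read 6.47, 7.53 and 7.57 in wild type and 9.52, 9.55 and 9.02 in the KO. It rose by 2.17 ± 0.29 (adjusted p = 0.042, limma), a 4.51-fold higher intensity, and wild-type array 1 was the lowest of its group by about 1 log2 unit. The activator Dbp read 8.86, 9.71 and 9.86 in wild type and 8.10, 7.53 and 7.32 in the KO. Its difference of -1.83 ± 0.29 did not pass the test (adjusted p = 0.066, limma), though the groups did not overlap; without wild-type array 1, the lowest of its group, the difference was -2.14 with an adjusted p of 0.0067, and with any of the other 5 arrays left out it did not pass. Tef, another activator, read 10.50, 10.70 and 10.79 against 9.90, 9.81 and 9.45, a difference of -0.94 ± 0.14 (adjusted p = 0.061, limma) that passed without wild-type array 1, at an adjusted p of 0.029, and with none of the other 5 left out. Hlf, the remaining activator of the family, differed by -0.42 ± 0.12 with no overlap (adjusted p = 0.312, limma).

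All 3 E-box repressors, 2 of them tested, were lower on every KO array than on every wild-type array. That order was found in 8.58% of all genes tested. Ciart, also called Chrono, read 9.44, 9.47 and 9.83 in wild type and 8.30, 7.42 and 7.34 in the KO. It fell by 1.90 ± 0.25 (adjusted p = 0.039, limma), and a second probe set for the gene gave -2.11. In a fit of every probe set with no limit on dim ones, the second had an SE of 0.13 (adjusted p = 0.0022, limma). The probe set used here had an SE of 0.26 in that fit and did not pass (adjusted p = 0.078, limma). KO array 1 was the highest of its group. Bhlhe40, also called DEC1, read 9.99, 10.31 and 10.39 against 9.52, 9.40 and 8.82, a difference of -0.98 ± 0.20 that did not pass the test (adjusted p = 0.147, limma). Bhlhe41, or DEC2, read 7.75, 7.33 and 7.90 in wild type and 5.28, 4.74 and 4.77 in the KO. Its mean over the arrays fell below the limit on dim genes, so it is not among the 13956; the difference was -2.73, and in the fit without that limit, where 0.0802% of genes passed, its adjusted p was 0.0037.

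**Figure D2:**
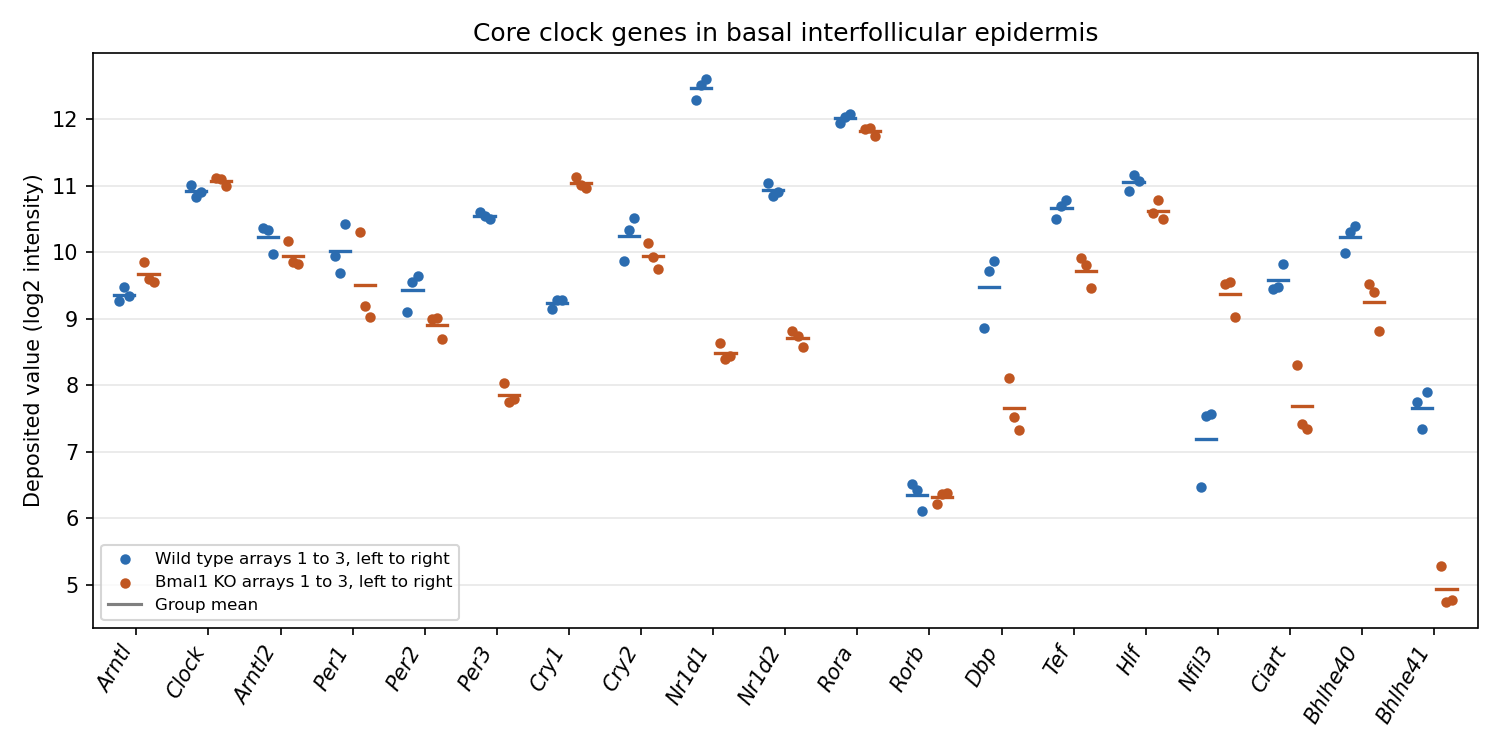
Deposited log2 intensity (vertical axis) of the 19 measured core clock genes on each of the 3 wild-type arrays (blue) and 3 Bmal1 KO arrays (orange), with group means as bars. Nr1d1, Nr1d2 and Per3 lie more than 2 log2 units lower in the KO, Cry1 and Nfil3 lie higher, and Arntl, Clock, Rora and Cry2 lie close together. Levels of different genes come from different probe sets and are not comparable.

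The wider clock list gave a different picture. Of 32 kinases, ligases, partners and outputs known from other tissues, 24 were tested and none passed the test, with changes from -0.39 to 0.43 and a median of 0.01. The groups did not overlap for 3 of the 24, all lower in the KO, which is near the 8.58% of all genes with that pattern. Cipc, which binds Clock and inhibits it, differed by -0.39 ± 0.15 (adjusted p = 0.522, limma). Usp2, a deubiquitinase with a rhythm in many tissues, differed by 0.33 ± 0.14 (adjusted p = 0.578, limma). Wee1, the mitotic kinase known as an E-box target in liver, differed by -0.08 ± 0.15.

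Outside the core clock, 21 genes passed the test, 9 of them higher and 12 lower in the KO. Serpina3b, a serine protease inhibitor of the Serpina3 cluster, read 6.95, 7.27 and 7.41 in wild type and 9.97, 10.20 and 9.70 in the KO. It rose by 2.75 ± 0.17 (adjusted p = 0.00046, limma), a 6.72-fold higher intensity and the largest rise of any gene tested. Serpina4-ps1, a serpin pseudogene 3 places away in the RefSeq gene order, rose by 1.09 ± 0.13 (adjusted p = 0.030, limma). The genes between them, Serpina5 and Serpina3a, were below the limit on dim genes. Serpins of 1 cluster are similar in sequence, and whether the probe sets read only their own gene was not tested. None of the other 7 tested genes in the serpin list passed.

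Il18r1, the ligand-binding chain of the interleukin-18 receptor, read 7.87, 8.13 and 8.44 in wild type and 10.00, 10.18 and 10.07 in the KO. It rose by 1.93 ± 0.15 (adjusted p = 0.0027, limma), a 3.82-fold higher intensity, and the KO arrays lay close together. Its co-receptor Il18rap was dim on every array, between 5.57 and 5.73. The ligand Il18 differed by -0.65 ± 0.26 and Il18bp, the secreted decoy that binds it, by -0.41 ± 0.11, and neither passed. Il18r1 alone of the 13 tested genes in the list of interleukin-1 family signalling passed the test, and the list median lay near 0. The neighbouring receptors Il1r2 and Il1rl2 differed by 0.11 ± 0.10 and -0.10 ± 0.11.

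The other genes that rose were of varied function. Ttc9, a tetratricopeptide repeat gene, read 7.53, 8.54 and 8.36 in wild type and 10.25, 10.31 and 10.02 in the KO, a rise of 2.05 ± 0.25 (adjusted p = 0.029, limma). Abhd12b, of the alpha/beta hydrolase family, read 6.89, 6.50 and 6.97 against 9.15, 8.38 and 8.36, a rise of 1.84 ± 0.23 (adjusted p = 0.030, limma). Thy1, a surface glycoprotein of T cells and other cell types, read 10.88, 11.20 and 11.00 against 12.37, 12.12 and 12.17, a rise of 1.19 ± 0.12 (adjusted p = 0.016, limma). In all 3 the groups were separate. Chn2, a GTPase-activating protein for Rac, rose by 0.99 ± 0.11. Marcks, an actin-binding substrate of protein kinase C, rose by 0.83 ± 0.11. Rras2, a small GTPase of the Ras family, rose by 0.74 ± 0.10, the smallest of the called changes.

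Rras2 lies 7 places from Arntl in the RefSeq gene order. Of the genes within 15 places of Arntl on either side, 17 were tested and Rras2 alone passed, where 0.193% of all genes did so. Its adjusted p was 0.048 (limma). This look at the neighbourhood of Arntl was made after the values were seen, with Rras2 already known to have passed.

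The genes outside the clock that fell moved by about 1 log2 unit each. Lrrn3, a leucine-rich repeat protein of neurons, read 8.43, 8.61 and 8.63 in wild type and 7.18, 7.23 and 7.55 in the KO, a fall of 1.24 ± 0.13 (adjusted p = 0.016, limma). Trpm3, a heat-sensitive cation channel, read 8.84, 8.58 and 8.57 against 7.58, 7.52 and 7.45, and fell by 1.15 ± 0.11 (adjusted p = 0.014, limma). Klf12, a zinc finger repressor, read 8.51, 8.57 and 8.81 against 7.55, 7.58 and 7.43, and fell by 1.11 ± 0.12 (adjusted p = 0.016, limma). In these genes every wild-type array was clearly above every KO array. Homer2, a postsynaptic scaffold protein, fell by 1.15 ± 0.14, and its second probe set gave -1.25. Gem, a small GTPase that inhibits calcium channels, fell by 1.03 ± 0.13. Sncg, gamma-synuclein, fell by 1.06 ± 0.13. Nlrp1c-ps, an inflammasome pseudogene, fell by 1.08 ± 0.12 and Fam171b by 1.08 ± 0.14. Rsad1 fell by 1.01 ± 0.13. Sytl2, which tethers secretory vesicles, fell by 0.98 ± 0.13.

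**Figure D3:**
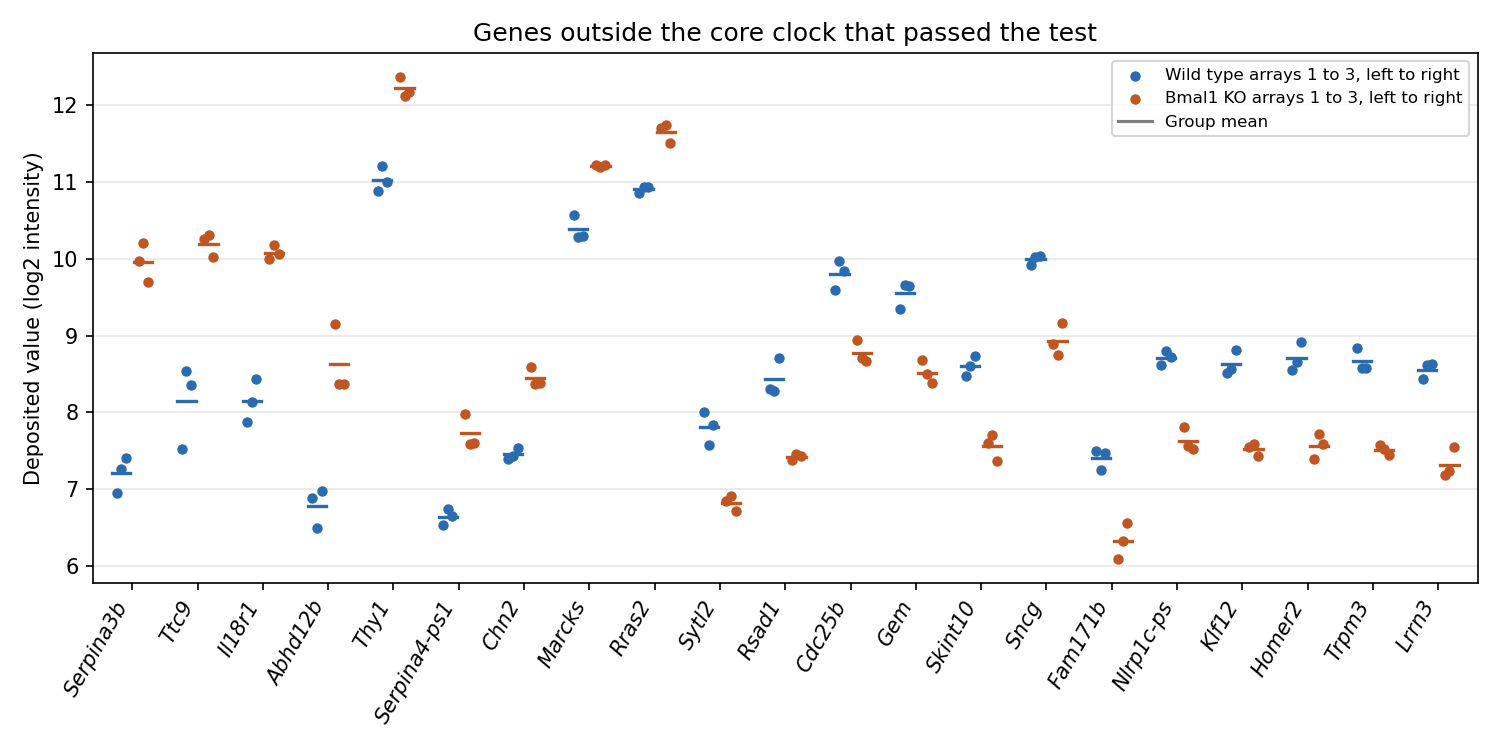
Deposited log2 intensity (vertical axis) on each array for the 21 genes outside the core clock that passed the test, ordered from the largest rise (Serpina3b, 2.75) to the largest fall (Lrrn3, -1.24). Blue points are wild-type arrays, orange points Bmal1 KO arrays and bars group means. No gene shows an overlap between the groups.

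Of 22 tested genes of mitosis a single one passed the test, and it fell, while the others had higher values on the KO arrays. Cdc25b, the phosphatase that activates the mitotic kinase Cdk1, read 9.59, 9.97 and 9.84 in wild type and 8.95, 8.70 and 8.67 in the KO, a fall of 1.03 ± 0.13 (adjusted p = 0.039, limma). Each of the other 21 tested members had a change above 0. The KO arrays lay above all wild-type arrays for 13 of the 22, where 4.11% of all genes did so, and the list's median was 0.39 against -0.01 for all genes. Without wild-type array 3 that median was 0.23. Cdk1 itself read 9.35, 9.50 and 9.20 against 10.08, 9.93 and 9.88, a difference of 0.61 ± 0.12 (adjusted p = 0.130, limma). Aurkb, a kinase of chromosome segregation, differed by 0.68 ± 0.14 and Ccna2, cyclin A2, by 0.60 ± 0.12, with no overlap in either. Mki67, the proliferation marker, overlapped between groups and differed by 0.24 ± 0.22. Wild-type array 3 was the lowest of the wild-type arrays for Cdk1, Ccna2, Aurkb and Mki67.

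Genes of DNA replication did not follow those of mitosis. None of the 20 tested passed, and their median was -0.18, or -0.08 without KO array 2 and -0.29 without KO array 1. The helicase subunits Mcm6, Mcm4 and Mcm3 differed by -0.39 ± 0.13, -0.33 ± 0.14 and -0.47 ± 0.19. Rrm2, the ribonucleotide reductase subunit, differed by 0.62 ± 0.16 with all KO arrays higher.

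Late differentiation genes varied widely among the wild-type arrays. Of 18 tested genes of the granular layer and cornified envelope none passed, the KO arrays lay below all wild-type arrays for 5 (8.58% of all genes), and the median was -0.42, or -0.78 without wild-type array 1 and -0.27 without wild-type array 3. Lor, the main cornified envelope protein loricrin, read 7.83, 9.75 and 9.97 in wild type and 8.36, 7.89 and 7.10 in the KO, a difference of -1.40 ± 0.55 (adjusted p = 0.542, limma). Wild-type array 1 lay within the KO range for Lor. Flg2, the barrier protein filaggrin-2, read 6.61, 7.70 and 8.54 against 6.11, 6.28 and 6.33, a difference of -1.38 ± 0.41. Cdsn, corneodesmosin, which holds corneocytes together, read 8.47, 9.38 and 10.16 against 8.27, 8.22 and 8.29, a difference of -1.07 ± 0.36. Wild-type array 1 was the lowest of its group in all 3 genes. Without that array, Lor, Flg2, Cdsn, Kprp and Lce1c passed the test with changes of -2.08, -1.88, -1.51, -1.23 and -1.12, in a fit where 0.545% of all genes passed on the lower side. With any of the other 5 arrays left out, no member of the list passed. Of 14 tested genes of the spinous layer none passed, and their median was -0.11. The KO arrays lay below all wild-type arrays for 6 and above them for none, where 8.58% and 4.11% of all genes did so. The spinous keratins Krt1 and Krt10 differed by -0.11 ± 0.09 and -0.12 ± 0.09. Dsg1b, a desmosomal cadherin of the suprabasal layers, differed by -0.49 ± 0.11 with no overlap (adjusted p = 0.215, limma).

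None of the 15 tested genes of the EGF receptor pathway passed, although several ligands read higher on the KO arrays. Epgn, epigen, read 10.22, 9.88 and 9.95 in wild type and 11.32, 11.16 and 10.83 in the KO, a difference of 1.09 ± 0.15 with an adjusted p of 0.051 (limma). Hbegf differed by 0.78 ± 0.16, and Dusp6, a phosphatase induced by the pathway, by 0.75 ± 0.18. The KO arrays lay above all wild-type arrays for 5 of the 15, where 4.11% of all genes did so, and the list median was 0.13. The receptor Egfr differed by -0.02 ± 0.10. Among chemokines, Cxcl14, made by resting keratinocytes, read 11.29, 11.51 and 11.56 against 12.31, 12.09 and 12.31, a difference of 0.78 ± 0.12 (adjusted p = 0.061, limma). Ccl20, which attracts Langerhans cell precursors and T cells, differed by 1.36 ± 0.37 and ranged from 8.80 to 10.53 over the KO arrays. Without wild-type array 1, Epgn and Cxcl14 passed the test at 1.19 and 0.70. In that fit 0.193% of all genes passed on the higher side.

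The remaining pathway lists stayed close to the median of all genes. No gene passed among 41 tested members of oxidative phosphorylation (median 0.12, or 0.02 without wild-type array 1), 22 cytosolic ribosomal proteins (0.04), 24 antioxidant genes (0.05), 21 genes each of the TGF-beta (0.01) and BMP (0.01) pathways, 16 of Notch (-0.01) or 21 Wnt ligands and receptors (0.11). None passed among 19 genes of cholesterol synthesis (-0.06), 19 of DNA repair (-0.10) or 17 of the interferon response (0.17).

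**Figure D4:**
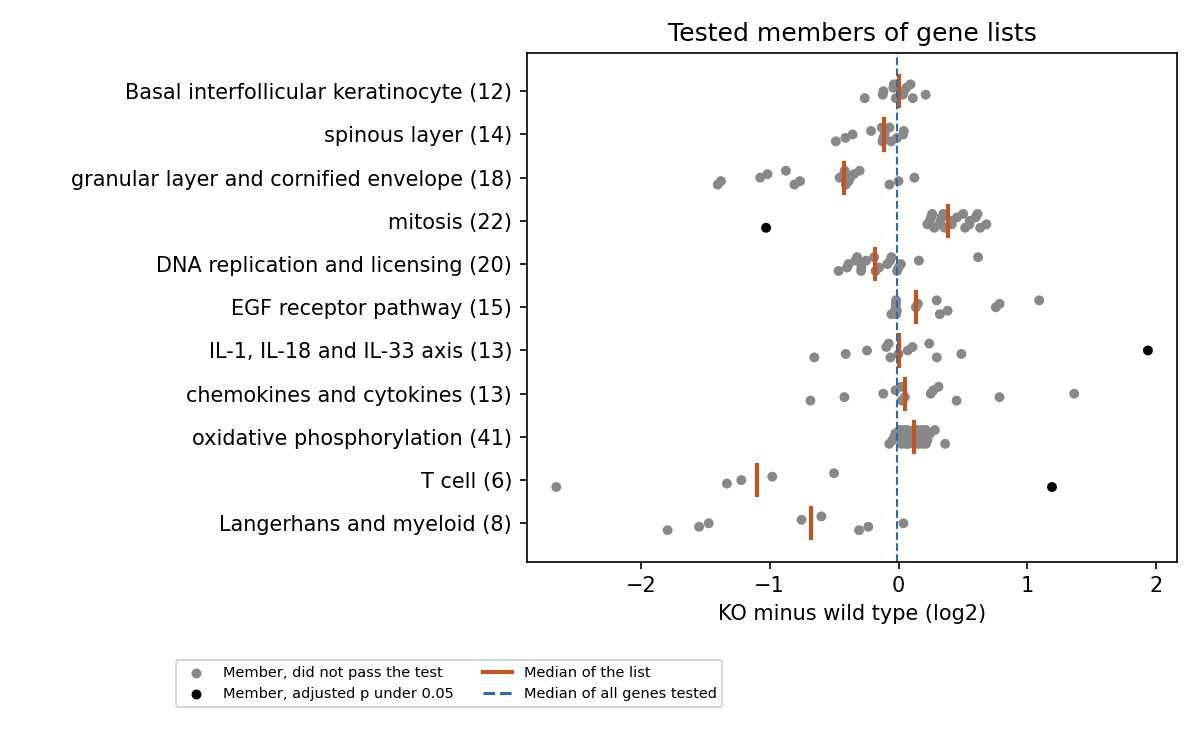
Change between Bmal1 KO and wild type (log2, horizontal axis) of each tested member of 11 gene lists, with the number tested in brackets. Black points passed the test, orange bars are list medians and the dashed blue line is the median of all genes tested. Mitosis genes lie to the right except Cdc25b, and T cell and Langerhans markers lie to the left except Thy1 and Epcam.

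Markers of immune cells that live in the epidermis read lower on the KO arrays, without passing the test. Of 10 T cell markers listed, 8 were measured and 6 tested; the single one that passed was Thy1, which rose. Cd3g, part of the CD3 complex that signals for the T cell receptor, read 8.53, 10.26 and 10.32 in wild type and 7.06, 7.12 and 6.96 in the KO, a difference of -2.66 ± 0.42 (adjusted p = 0.066, limma). Cd3e differed by -1.33 ± 0.29, Cd7 by -1.22 ± 0.33 and Ptprc, the pan-leukocyte marker CD45, by -0.98 ± 0.21. In these 4 genes every KO array lay below every wild-type array, as in 8.58% of all genes, and wild-type array 1 was the lowest of its group. The dim markers Cd3d and Cd2 had the same order, with differences of -1.45 and -0.70. Summed over the 7 measured markers other than Thy1, the log2 level was 10.60, 11.78 and 12.02 in wild type and 9.91, 10.09 and 10.04 in the KO. With Thy1 included, the range was 11.75 to 12.60 in wild type and 12.43 to 12.61 in the KO. In such bulk samples fewer cells of a type and less RNA per cell cannot be told apart.

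Langerhans and myeloid markers overlapped more between the genotypes. None of 8 tested passed, and all KO arrays lay below all wild-type arrays for 1 of them, where 8.58% of all genes did so. Their median was -0.68, or -0.39 without wild-type array 3. H2-Ab1, an MHC class II chain, read 8.40, 10.34 and 10.87 in wild type and 8.36, 8.42 and 7.44 in the KO, a difference of -1.79 ± 0.58. Cd74, the class II invariant chain, read 7.43, 9.24 and 10.06 against 7.42, 7.47 and 7.19. Wild-type array 1 lay at the level of the KO arrays in both. Cd207, which encodes langerin, differed by -0.60 ± 0.24. The summed log2 level of the 9 measured markers ranged from 11.35 to 12.78 in wild type and from 11.31 to 11.54 in the KO. Without wild-type array 1, Cd3g, Cd3e, Cd7 and Ptprc passed the test at -3.24, -1.72, -1.65 and -1.21, and H2-Ab1, Cd74 and H2-Aa at -2.52, -2.29 and -2.24, in the fit where 0.545% of all genes passed on the lower side. With any of the other 5 arrays left out, no T cell or Langerhans marker passed on the lower side.

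Genes of the Skint family, immunoglobulin-like membrane proteins of keratinocytes, were looked at after their values were seen. Skint10 read 8.48, 8.61 and 8.73 in wild type and 7.61, 7.71 and 7.36 in the KO, and fell by 1.05 ± 0.13 (adjusted p = 0.029, limma). Skint7 read 10.63, 10.87 and 10.37 against 9.77, 9.71 and 9.84, a difference of -0.85 ± 0.14 (adjusted p = 0.070, limma). Skint9 differed by -0.78 ± 0.23 and Skint11 by -0.07 ± 0.14. All 6 tested family members had changes below 0, as did 53.6% of all genes, and the groups did not overlap for 4 of them, a pattern found in 8.58% of all genes. Family members are similar in sequence, and whether their probe sets read only their own gene was not tested. The part of the T cell markers in these values was not tested.

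**Figure D5:**
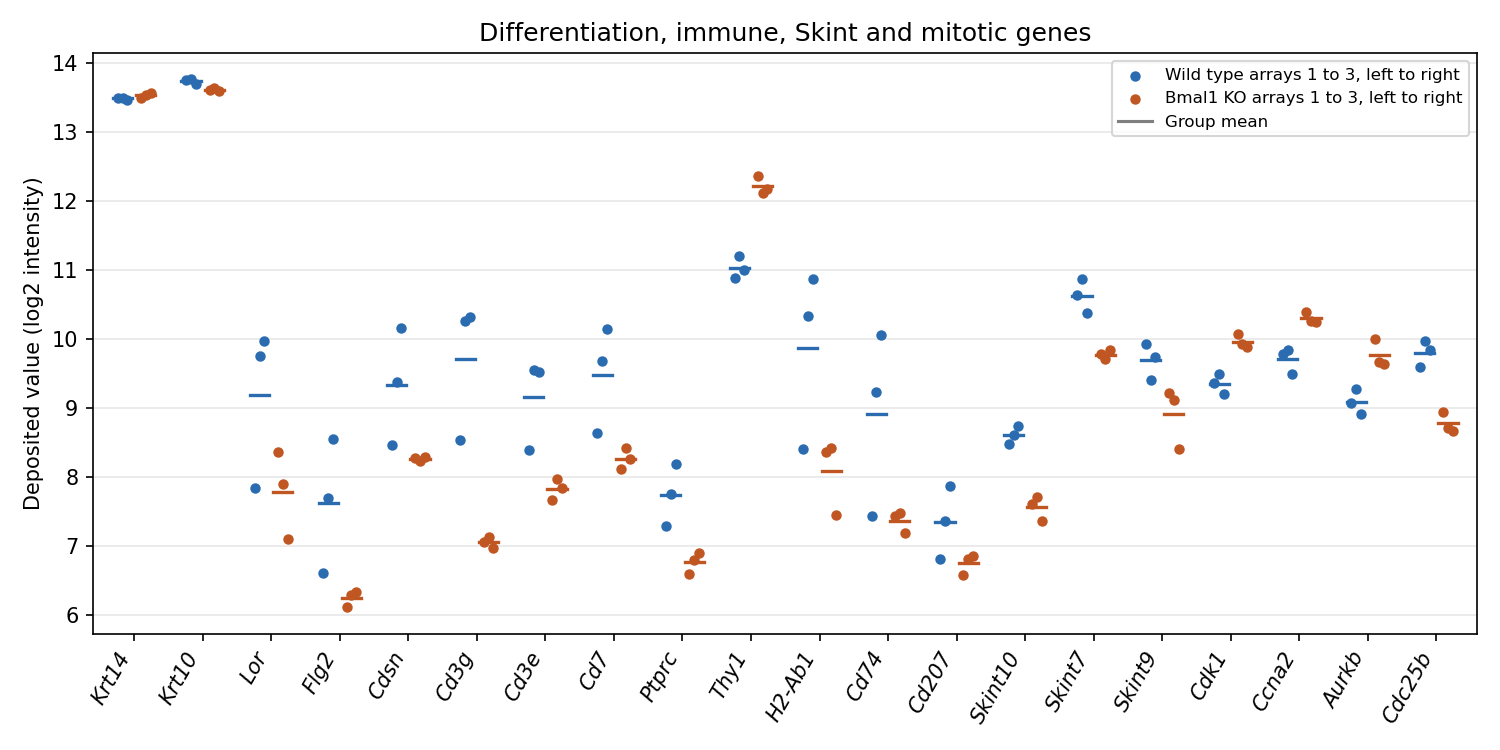
Deposited log2 intensity (vertical axis) of keratinocyte differentiation, T cell, Langerhans, Skint and mitotic genes on each wild-type (blue) and Bmal1 KO (orange) array, with group means as bars. The first blue point of Lor, Cd3g, H2-Ab1 and Cd74, wild-type array 1, lies well below the other blue points. Krt14 lies near 13.5 on all 6 arrays.

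In the other marker lists described here no gene passed. None of the tested fibroblast (4), endothelial (3), bulge (7), sebocyte (4) or inner root sheath (7) markers passed, with list medians between -0.04 and 0.03. None passed either among markers of melanocytes (5 tested, median -0.20), the hair shaft (3, -0.14), Schwann cells (3, -0.13) or the upper follicle (6, -0.10). Of the 5 melanocyte markers, 2 were lower and 1 was higher on every KO array, as were 8.58% and 4.11% of all genes. Markers of mast cells and neutrophils were all dim. Acta2, smooth muscle actin, differed by 1.07 ± 0.19 while Myh11 and Tagln, made by the same cells, differed by 0.13 ± 0.12 and -0.13 ± 0.12. Alas2, an enzyme of heme synthesis best known in red cell precursors, differed by -1.20 ± 0.21 (adjusted p = 0.088, limma) and Slc4a1 of red cells by -0.07 ± 0.10. Krt79, of the upper follicle, differed by -1.03 ± 0.30. Without wild-type array 1, Krt79, Alas2 and Acta2 passed the test at -1.37, -1.33 and 0.88. In that fit 0.545% of all genes passed on the lower side and 0.193% on the higher.

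The difference between genotypes was also set against the difference between Venus bright and dim bulge cells, by a test of the difference between the 2 contrasts over all 12 arrays. That test called 2164 of 12924 genes, or 16.7%, so a call in it is common. Nr1d1, Per3 and Nr1d2 were picked for their change in the epidermis, so their values are given with no test. In wild type minus KO, Nr1d1 gave 3.98 where bright minus dim gave 0.08, Per3 2.69 against -0.06, and Nr1d2 2.22 against 0.08. Nfil3, picked in the same way, gave -2.17 against 1.01. Per1 gave 0.51 in both, but in the epidermis its groups overlapped and the difference did not pass the test. The bulge cells were sorted by a Per1-Venus reporter, so the bulge value of Per1 is not independent of the sorting. Lrrn3 gave 1.24 against 1.48, Sncg 1.06 against 0.99, Fam171b 1.08 against 1.53 and Cdc25b 1.03 against 0.62. In these genes, also picked for their change in the epidermis, the difference of contrasts did not pass. A difference that did not pass does not show that the contrasts are alike. Age, anatomical site, genotype and sorting gate all differ between the contrasts and cannot be told apart.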

How the data were processed

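The 12 samples were hybridised to Affymetrix mouse whole-transcript arrays. The deposited values are log2 intensities; per the submitters' processing notes, the authors used RMA, of which no version or setting is given in the sources used here. Of the epidermal probe sets, those with 1 gene symbol in the platform annotation were kept, and for each gene the probe set measured on all 12 arrays with the highest mean. The 30% of genes with the lowest mean were left out. Bmal1 KO was compared with wild type by limma 3.58.1 in R 4.3.3 on the 6 epidermal arrays, with Benjamini-Hochberg adjustment over 13956 genes and a threshold of 0.05, and the contrast was tested against that of the bulge in a fit of all 12 arrays. The fit was tested on simulated data. Named genes are the clock lists, every called gene, up to 3 members of each other list with the smallest p, and cell type markers. Members and lists were chosen with earlier results of these data known. The labels do not say whether equal replicate numbers pair arrays. Deviations from the group mean correlated at -0.44, 0.04 and -0.52 between same-numbered arrays. Those of wild-type array 1 and KO array 3 correlated at 0.54, and those of wild-type array 3 and KO array 1 at 0.43. The remaining pairs with unlike numbers lay between -0.31 and 0.25. What these arrays share was not tested. Deviations cancel out within each group, so these correlations are tied to each other and cannot decide whether arrays were paired. Alternatives covered the filter on dim genes, scaling, variance estimate, probe set choice, a replicate block and each array left out. The array count limits the precision.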

Additional observations from a re-analysis of the deposited data

Results flagged for a closer look

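For 30 of the called and clock genes, the change in the epidermis (wild type minus KO) differed from that in the bulge (Venus bright minus dim) in limma's test of the difference, which called 16.7% of all genes. Many of them were picked for their change in the epidermis, so a call here is no independent evidence of a difference. Sites, ages and gates differ along with the contrasts and cannot be told apart. The difference of changes was above 0 for Nr1d1 (3.91), Per3 (2.76), Nr1d2 (2.14), Dbp (1.55), Ciart (1.54), Rsad1 (1.21), Klf12 (1.00), Nlrp1c-ps (1.00), Homer2 (0.92), Skint10 (0.90), Gem (0.90), Trpm3 (0.85), Bhlhe40 (0.79), Tef (0.58) and Hlf (0.42). It was below 0 for Nfil3 (-3.18), Serpina3b (-2.42), Ttc9 (-2.09), Cry1 (-1.84), Abhd12b (-1.73), Marcks (-1.36), Aqp3 (-1.17), Chn2 (-1.16), Klf10 (-1.14), Rras2 (-0.93), Thy1 (-0.89), Usp2 (-0.66), Alas1 (-0.62), Clock (-0.51) and Arntl (-0.47). Groups of 3 arrays were not tested for a single array that stands apart.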

How the results depend on the processing

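Against 27 genes called (11 higher and 16 lower in the KO), counts were 16 (5 higher) with no filter on dim genes, 47 (18 and 29) with 50% left out, 18 (7 higher) with median centring, 59 (25 and 34) with quantile normalization, 86 (44 and 42) with cyclic loess, 56 (21 and 35) with an intensity trend and 407 (148 and 259) with all 12 arrays in 1 fit. Cyclic loess moved the share of higher calls from 40.7% to 51.2%. The replicate block, whose pairing the labels do not state, left 4 calls (1 and 3). Leaving out 1 array gave 7 to 103 calls, 3 to 27 higher and 3 to 76 lower; 4 genes, Nr1d1, Per3, Nr1d2 and Serpina3b, passed under every alternative. Weights per array could not be fitted. The difference of contrasts, 2164 genes, ranged from 1035 to 3895 without 1 array. Some changes near 0 turned sign when 1 array was left out, over these ranges: Csnk1d -0.032 to 0.11, Csnk1e -0.12 to 0.17, Gsk3b -0.0016 to 0.13, Fbxw11 -0.11 to 0.15, Klf15 -0.017 to 0.29, Tsc22d3 -0.19 to 0.32, Avpi1 -0.22 to 0.11, Prkaa1 -0.098 to 0.013 and Nampt -0.24 to 0.068. The cause was not tested.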

Other observations

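Beside the 27 called genes, 38 had an adjusted p between 0.05 and 0.1 (limma), 14 higher and 24 lower in the KO. The following were singled out after their values were seen, and none passed the test. Trim12a, of the TRIM5 family, read 9.36, 7.73 and 7.90 in wild type and 5.83, 5.63 and 5.69 in the KO. Slc38a4, an amino acid transporter, read 8.87, 8.46 and 8.39 against 10.96, 9.84 and 10.44. Rerg, a Ras-related GTPase, read 7.28, 7.63 and 8.35 against 9.54, 9.28 and 9.51. Cth, the enzyme that makes cysteine from cystathionine, read 7.97, 7.99 and 7.96 against 8.90, 8.62 and 8.65. Ngfr, the p75 neurotrophin receptor, read 9.57, 10.04 and 9.96 against 8.83, 8.97 and 8.41. The groups did not overlap in any of these 5 genes, a pattern found in 12.7% of all genes tested. Since the 5 were picked for their values, this separation adds no further evidence.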
